A study of Homo sapiens with 18 samples.

Results

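The 37 genes of the human mitochondrial genome are the subject here: 13 mRNAs, 2 ribosomal RNAs (rRNAs) and 22 transfer RNAs (tRNAs). They were taken by symbol, every gene whose name begins with MT-, out of 60483 gene identifiers in the deposited count tables. HAIR-M, the cell line used, is of human B cells and stands in the labels under marginal zone lymphoma. The cells were given 5 nM copanlisib, an inhibitor of phosphoinositide 3-kinases, for 4, 8 or 12 h, or the solvent DMSO for the same hours, with 3 libraries in each of the 6 groups. All groups are 1 cell line with no other treatment or allele named. The sources used here do not say that replicates were separate cultures, so the p-values rest on the spread among libraries, which may be technical only.

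Each library held 13587017 to 25566761 gene reads on the sense strand. The labels' extraction text speaks of retinas, so markers were checked: 7 B cell markers summed to 3869 to 5196 CPM per library (CPM scales a gene's reads to a common total of gene reads), and 8 retina markers to between 0 and 0.347 CPM. Markers of T and NK cells summed to 12.0 to 19.3 CPM, myeloid markers to 3.34 to 6.20 CPM and erythroid markers to at most 0.0553 CPM. At 4 h, copanlisib replicates 1 and 2 had 8.73% and 5.22% unmapped reads, and the other 16 libraries had 1.74% to 2.82%. The same pair of libraries stood apart in their mitochondrial reads, so 4 h results are given with all libraries and again with replicate 3 standing alone for copanlisib at 4 h. In that second fit the copanlisib 4 h group holds 1 library, which is assumed to vary like the libraries of the other groups.

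Mitochondrial DNA is a small circle that is transcribed on both strands as long precursors. The heavy-strand transcript carries both rRNAs, 14 tRNAs and 12 of the mRNAs, and the light-strand transcript carries 8 tRNAs and the mRNA of MT-ND6. The tRNAs lie between most of the other genes. Cutting them out of the precursor frees the rRNAs and most mRNAs, and most of these are then given short poly(A) tails. All of the mRNAs code for subunits of the respiratory chain or of ATP synthase, and the rRNAs build the ribosome that translates them inside mitochondria.

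Because genes sit so closely, some share bases on the same strand, and a read that touches both genes is counted for neither. The sequences below are those the counts and results turn on, from GENCODE 29 (GRCh38), 5′ to 3′. MT-ATP8, at chrM:8366-8572 on the plus strand, shares its last 46 bases, in capitals, with MT-ATP6. MT-TY at chrM:5826-5891 and MT-TC at chrM:5761-5826, tRNAs for tyrosine and cysteine, are neighbours on the minus strand and share 1 base, in capitals. MT-TT at chrM:15888-15953 on the plus strand, the tRNA for threonine, shares none.
MT-ATP8: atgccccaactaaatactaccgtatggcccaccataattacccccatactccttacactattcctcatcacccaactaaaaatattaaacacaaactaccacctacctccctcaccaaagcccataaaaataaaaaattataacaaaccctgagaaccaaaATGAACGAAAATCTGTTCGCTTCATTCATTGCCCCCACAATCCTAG
MT-TY: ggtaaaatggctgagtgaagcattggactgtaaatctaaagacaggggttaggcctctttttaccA
MT-TC: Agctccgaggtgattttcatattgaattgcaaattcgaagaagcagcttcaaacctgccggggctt
MT-TT: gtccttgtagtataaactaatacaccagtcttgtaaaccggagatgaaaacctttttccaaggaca

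Levels between genes were compared as CPM per kilobase of the bases that are not shared, as means ± SD over the 9 DMSO libraries. Reads that cross a shared stretch are lost to both genes, and dividing by unshared bases does not restore them. MT-ATP8 and MT-ATP6 share bases, as do MT-ND4L and MT-ND4. Their levels may thus be understated, and gaps within each of these pairs are uncertain. The mRNA of MT-ND4, a complex I subunit, was highest at 13904 ± 720.4 CPM per kb. MT-CO1, the catalytic subunit of cytochrome c oxidase (complex IV), followed with 11067 ± 697 CPM per kb. The large rRNA MT-RNR2 had 9793 ± 858, and the complex IV subunits MT-CO2 and MT-CO3 had 9728 ± 494 and 9073 ± 381 CPM per kb. From MT-CO1 through MT-ATP6, a subunit of ATP synthase at 8286 ± 821 CPM per kb, each neighbour in this order overlapped the next over the 9 libraries. Below a gap came MT-CYB, the mitochondrially encoded subunit of complex III, at 5854 ± 419.6 CPM per kb. The complex I mRNAs MT-ND4L, MT-ND3, MT-ND2 and MT-ND1 followed at 5425 ± 237, 4692 ± 367, 4512 ± 247 and 4232 ± 378 CPM per kb, each overlapping its neighbour.

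MT-ND5, another complex I mRNA, had 3147 ± 119 CPM per kb, and MT-ATP8, a small ATP synthase subunit, 2716 ± 420.2 CPM per kb, and these overlapped. The small rRNA MT-RNR1 was lower than every mRNA but MT-ND6, at 820.1 ± 54.4 CPM per kb. Per length, MT-RNR2 exceeded MT-RNR1 by 12.2 to 14.2 times in the 9 copanlisib libraries, and by 10.9 to 12.7 times in the 9 DMSO libraries. MT-ND6, the complex I subunit coded on the opposite strand, had 91.4 ± 11.3 CPM per kb of sense reads. Opposite to MT-ND6 the reads were far more frequent, at 4269 ± 182 CPM per kb, between the sense levels of its neighbours MT-ND5 and MT-CYB, which are read from that strand.

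**Figure D1:**
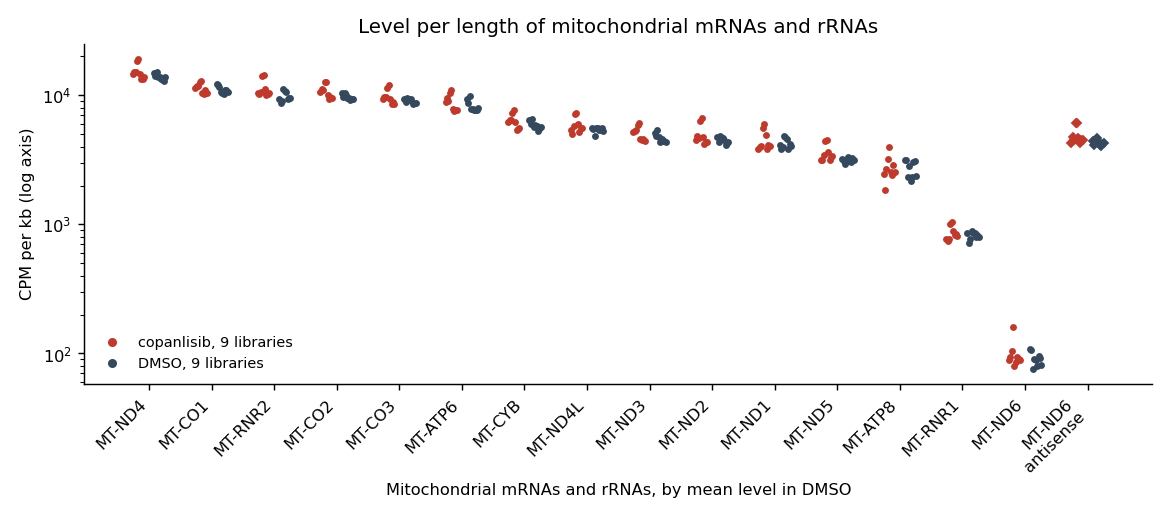
Sense CPM per kilobase (log axis) of the 15 mitochondrial mRNAs and rRNAs in the 9 copanlisib and 9 DMSO libraries, 1 point per library, ordered by the DMSO mean, with the antisense reads of MT-ND6 as diamonds at the right. MT-ND4 was highest and MT-RNR1 and sense MT-ND6 were lowest, while antisense MT-ND6 lay among the mRNAs.

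Of the 22 tRNAs, 6 had no sense read in any library (MT-TN, MT-TK, MT-TG, MT-TR, MT-TH and MT-TL2), and 9 passed the filter on low counts. Many tRNA genes abut their neighbours without a gap, as MT-TG does MT-CO3 and MT-ND3, and MT-TT does MT-CYB. A read that crosses such an end touches both genes and is counted for neither, so tRNA levels may be understated. Why those 6 tRNAs had 0 sense reads was not tested. MT-TT was the most read, with 228 to 532 reads per library and 261 ± 14.5 CPM per kb in DMSO. MT-TI, the tRNA for isoleucine, was next with 43 to 92 reads and 52.2 ± 7.82 CPM per kb, and the other tested tRNAs had 2 to 73 reads per library. All tRNAs together made up 0.0327% ± 0.000695 of the mitochondrial sense reads with copanlisib and 0.0330% ± 0.00147 with DMSO at 4 h (SD, n = 3 each). At 8 h they made up 0.0370% ± 0.00126 with copanlisib and 0.0331% ± 0.00104 with DMSO, and at 12 h 0.0362% ± 0.00283 with copanlisib and 0.0340% ± 0.00246 with DMSO.

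The share of gene reads that came from the mitochondrial genome was higher with copanlisib. At 4 h the share was 12.4, 12.6 and 10.1% in the copanlisib libraries, against 9.50, 9.50 and 9.23% in the DMSO libraries. At 8 h it was 9.50, 9.78 and 9.82% with copanlisib and 9.07, 9.29 and 9.36% with DMSO. At 12 h it was 9.96, 10.4 and 10.5% with copanlisib and 10.0, 9.63 and 9.82% with DMSO. The groups did not overlap at 4 h or 8 h and overlapped at 12 h.

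The mean difference over the 3 times was 1.06 percentage points (exact two-sided permutation of treatment within time over 8000 arrangements, p = 0.0005, adjusted over 5 quantities p = 0.0025). Without copanlisib 4 h replicates 1 and 2 it was 0.537 points (exact permutation, adjusted p = 0.00625), and over 8 h and 12 h alone 0.460 points (adjusted p = 0.025, from an exact p of 0.01 where 0.005 is the smallest possible). These shares use plain library totals. On that scale the median log2 fold change over all genes at 8 h was 0.0624 and that of the mitochondrial genes 0.0685. By these medians the rise at 8 h was not particular to mitochondrial genes. More mitochondrial RNA per cell and less RNA from nuclear genes cannot be told apart in these bulk counts.

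**Figure D2:**
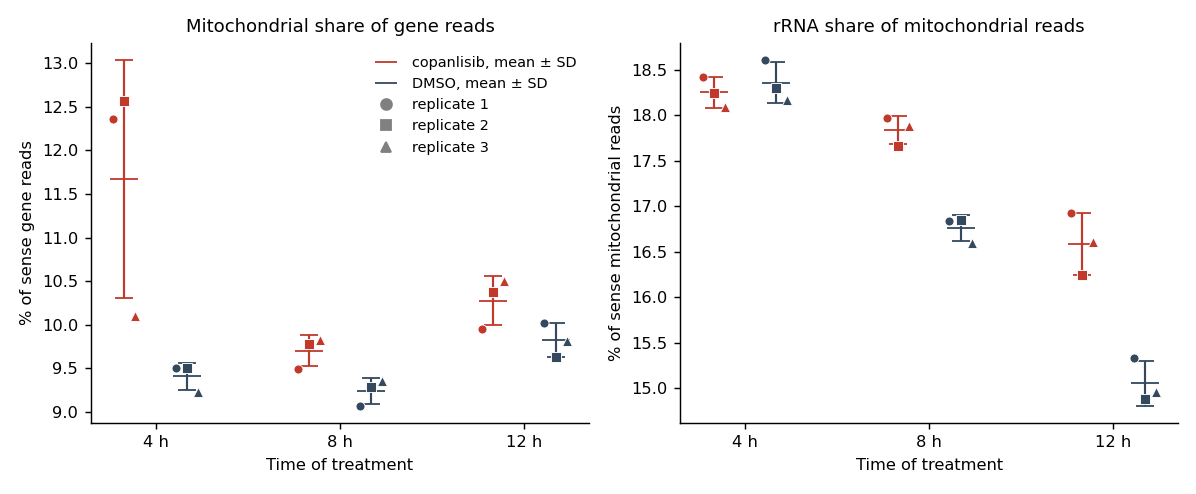
Left, mitochondrial sense reads as a percentage of all sense gene reads; right, rRNA reads as a percentage of mitochondrial sense reads, by time, 1 point per library with mean ± SD (n = 3). Copanlisib replicates 1 and 2 at 4 h stand at 12.4 and 12.6% on the left, and the rRNA share of the copanlisib libraries lies above that of the DMSO libraries at 8 h and 12 h on the right.

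After 4 h of copanlisib, 12 of the 13 mRNAs and both rRNAs were higher than in DMSO with all libraries in the fit, and with replicate 3 alone 1 of them was. A gene was called when its p from edgeR's quasi-likelihood test on TMM-scaled counts, after Benjamini-Hochberg adjustment across the 16122 genes tested, lay under 0.05. With all libraries, 15 of the 24 mitochondrial genes tested were higher and 0 lower, where 38.4% of all genes were called in either direction, 17.7% higher and 20.7% lower. Their median log2 fold change was 0.28, and that of all genes 0.0095. When replicate 3 stood alone, 1 of 26 mitochondrial genes tested was called, where 22.2% of all genes were, 8.86% higher and 13.4% lower.

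MT-ND5 was that gene. Its values at 4 h were 8011, 8228 and 6591 CPM with copanlisib, against 5770.4, 6064 and 5586 CPM with DMSO. All copanlisib libraries lay above all DMSO libraries, with replicate 3 the lowest of the copanlisib libraries. Its log2 fold change ± SE came to 0.39 ± 0.06 (edgeR, adjusted p = 8.08e-06), and 0.19 ± 0.05 with replicate 3 alone (adjusted p = 0.00561).

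Among the other complex I mRNAs, MT-ND4 had 25309, 25965 and 20142 CPM with copanlisib, against 18952, 18897 and 18335 CPM with DMSO. The groups did not overlap, and the log2 fold change was 0.35 ± 0.06 with all libraries (edgeR, adjusted p = 4.26e-05) and 0.11 ± 0.05 with replicate 3 alone (adjusted p = 0.0968). The groups also did not overlap for MT-ND1 and MT-ND4L, whose log2 fold changes were 0.23 ± 0.05 and 0.30 ± 0.06 with all libraries, and 0.06 ± 0.05 and 0.13 ± 0.06 with replicate 3 alone. MT-ND2 and MT-ND3 were 0.35 ± 0.07 and 0.28 ± 0.06 higher on the log2 scale with all libraries. Replicate 3 alone gave 0.04 ± 0.05 and 0.03 ± 0.05. MT-ND6 sense did not pass the test at 4 h (0.33 ± 0.16, edgeR adjusted p = 0.103), and was at 0.0011 ± 0.11 with replicate 3 alone.

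The complex III mRNA MT-CYB had 8351, 8834 and 7034 CPM with copanlisib, against 6502, 6685 and 6538 CPM with DMSO. Its groups did not overlap, with a log2 fold change of 0.30 ± 0.05 with all libraries and 0.10 ± 0.05 with replicate 3 alone (edgeR, adjusted p = 0.000103 and 0.128). In complex IV, MT-CO1 had 19406, 19843 and 16006 CPM with copanlisib, against 16414, 16003 and 15739 CPM with DMSO. Replicate 3 lay among the DMSO libraries, and the log2 fold change of 0.20 ± 0.05 with all libraries became -0.0011 ± 0.05 with replicate 3 alone. MT-CO2 and MT-CO3 were 0.28 ± 0.06 and 0.23 ± 0.06 with all libraries, against 0.05 ± 0.05 and 0.0027 ± 0.05 with replicate 3 alone. The ATP synthase mRNAs MT-ATP6 and MT-ATP8 were 0.32 ± 0.07 and 0.42 ± 0.14 with all libraries, against 0.01 ± 0.05 and 0.08 ± 0.12 with replicate 3 alone.

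After 8 h and 12 h of copanlisib no mitochondrial mRNA passed the test in the fit of all libraries. That fit estimated each gene's spread over all groups, including the copanlisib 4 h libraries, which differed widely among themselves in mitochondrial genes. The SE may thus be too wide for 8 h and 12 h, and a miss there does not show that a gene was unchanged. Fits with only the libraries of the same time called more mitochondrial genes, and which ones is not given here. At 8 h, 1 of the 24 mitochondrial genes tested was called (33.1% of all genes were, 14.8% higher and 18.3% lower), and at 12 h 1 was (30.3% of all genes, 13.8% higher and 16.5% lower). The 13 mRNAs had log2 fold changes from -0.12 to 0.061 at 8 h and from -0.30 to 0.096 at 12 h, and MT-ATP8 was lowest at both times. MT-ATP8 had 395, 299 and 434 CPM with copanlisib, against 511, 506 and 374 CPM with DMSO at 12 h, so the groups overlapped. The median over the mitochondrial genes was 0.021 at 8 h and 0.015 at 12 h, and that over all genes 0.015 and 0.0044.

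**Figure D3:**
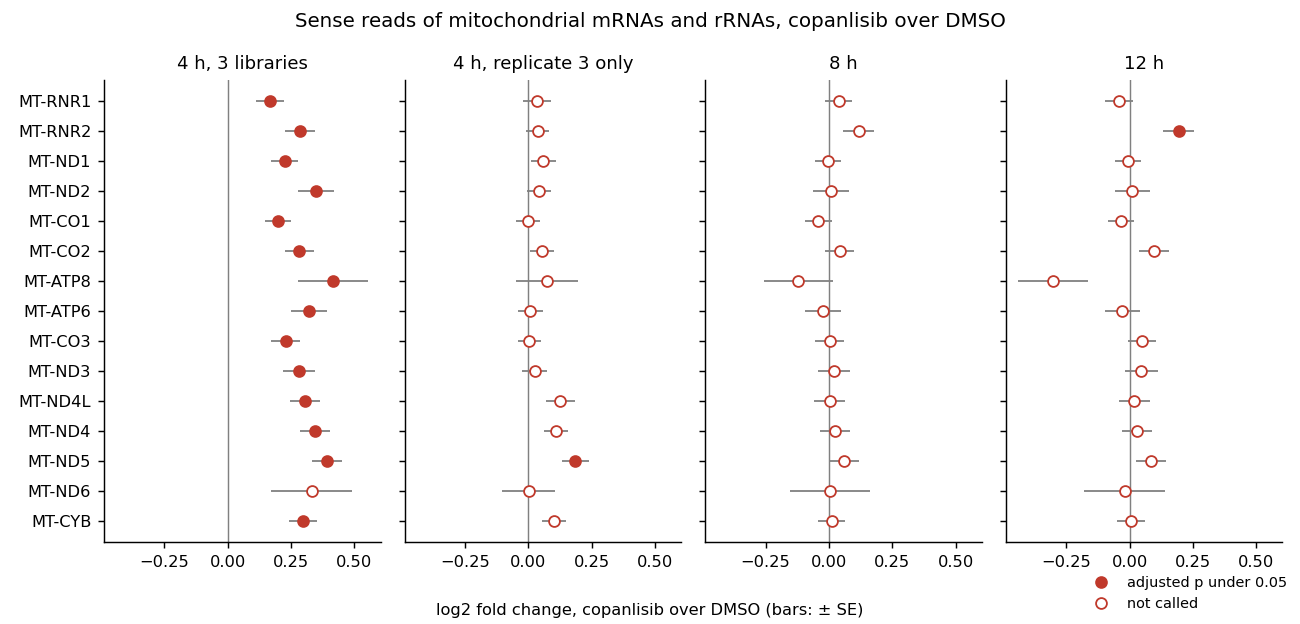
Log2 fold change ± SE of sense reads, copanlisib over DMSO, for the 13 mRNAs and 2 rRNAs in genome order, at 4 h with 3 copanlisib libraries, at 4 h with replicate 3 alone, at 8 h and at 12 h. Filled points have an adjusted p under 0.05: 14 genes in the first panel, MT-ND5 in the second, none in the third and MT-RNR2 in the fourth.

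Over the average of the 3 times, 10 of 24 mitochondrial genes were higher and 0 lower. Over all genes 50.1% were called in either direction, so mitochondrial genes were not called more often than all genes. With replicate 3 alone at 4 h, 4 of 26 were higher and 0 lower, where 48.8% of all genes were called. These 4 were MT-RNR2 (0.11 ± 0.02, edgeR adjusted p = 1.79e-05), MT-ND5 (0.11 ± 0.02, adjusted p = 0.000221), MT-TT (0.16 ± 0.05, adjusted p = 0.00987) and MT-CO2 (0.06 ± 0.02, adjusted p = 0.0193). With all libraries their average changes were 0.20 ± 0.03, 0.18 ± 0.03, 0.29 ± 0.06 and 0.14 ± 0.03.

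MT-RNR2 (chrM:1671-3229), the RNA of the large mitochondrial ribosomal subunit, was the mitochondrial gene called at 12 h. At 4 h it had 22069, 22559 and 17334 CPM with copanlisib, against 17496, 16912 and 16406 CPM with DMSO. At 8 h it had 15705, 15983 and 16217 CPM with copanlisib, against 14596, 14816 and 14754 CPM with DMSO. At 12 h it had 16132, 15923 and 16471 CPM with copanlisib, against 14669, 13564 and 14194 CPM with DMSO. The copanlisib libraries lay above the DMSO libraries at 8 h and 12 h, and at 4 h replicate 3 lay among them. The log2 fold change was 0.29 ± 0.06 at 4 h and 0.04 ± 0.05 there with replicate 3 alone. It was 0.12 ± 0.06 at 8 h and 0.19 ± 0.06 at 12 h (edgeR, adjusted p = 0.139 and 0.0148). The miss at 8 h falls under the limit given above, a spread shared with the copanlisib 4 h libraries. Without copanlisib 12 h replicate 3 or DMSO 12 h replicate 2 the 12 h change was 0.179 or 0.168 and did not pass. MT-RNR1 (chrM:648-1601), the RNA of the small subunit, was at 0.04 ± 0.05 and -0.04 ± 0.05 at these times, neither called.

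Within mitochondrial reads, a scale that library totals do not touch, the rRNAs held a larger share after copanlisib. Their share at 4 h was 18.4, 18.2 and 18.1% with copanlisib and 18.6, 18.3 and 18.2% with DMSO, and the groups overlapped. At 8 h it was 17.96, 17.7 and 17.9% with copanlisib, against 16.8, 16.8 and 16.6% with DMSO. At 12 h it was 16.9, 16.2 and 16.6% with copanlisib, against 15.3, 14.9 and 15.0% with DMSO. At the 2 later times all copanlisib libraries lay above all DMSO libraries.

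The mean difference in rRNA share over the 3 times was 0.835 percentage points (exact permutation within time, p = 0.00375, adjusted over 5 quantities p = 0.009375). It was 0.779 points without copanlisib 4 h replicates 1 and 2 (adjusted p = 0.01875) and 1.31 points over 8 h and 12 h alone (adjusted p = 0.025, from the smallest exact p possible, 0.005). The difference lay in MT-RNR2: its share at 12 h was 16.2, 15.6 and 15.9% with copanlisib and 14.5, 14.2 and 14.2% with DMSO. The share of MT-RNR1 at 12 h was 0.743, 0.694 and 0.708% with copanlisib and 0.816, 0.713 and 0.742% with DMSO, and these overlapped.

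Of the tRNAs, MT-TT was higher at every time by its mean. It had 25.3, 26.4 and 17.7 CPM with copanlisib, against 18.4, 16.2 and 15.7 CPM with DMSO at 4 h. At 8 h it had 18.1, 19.9 and 19.6 CPM with copanlisib, against 16.9, 18.05 and 16.8 CPM with DMSO, and at 12 h 19.6, 23.5 and 18.9 CPM with copanlisib, against 17.4, 18.4 and 17.05 CPM with DMSO. The groups did not overlap at 8 h and 12 h. Its log2 fold changes were 0.48 ± 0.11, 0.16 ± 0.11 and 0.23 ± 0.11 at 4, 8 and 12 h, of which the first passed the test (edgeR, adjusted p = 0.00104, 0.284 and 0.126). Replicate 3 alone gave 0.09 ± 0.11 at 4 h (adjusted p = 0.624). The tRNA for methionine, MT-TM, was the gene called at 8 h, on few reads: 10, 16 and 15 with copanlisib and 5, 2 and 3 with DMSO. Its log2 fold change was 1.54 ± 0.43 (edgeR, adjusted p = 0.00636), and DESeq2 gave it no adjusted p. The tRNA share of mitochondrial reads differed by 0.00193 points on average (exact permutation, p = 0.05325, adjusted over 5 quantities p = 0.0775). It passed without copanlisib 12 h replicate 3, DMSO 12 h replicate 2 or DMSO 4 h replicate 1 (adjusted p = 0.0456, 0.035 and 0.0321).

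Over the hours in DMSO, the 2 rRNAs and MT-ND1 fell and 4 other mRNAs rose. From 4 h to 12 h in DMSO, 6 mitochondrial genes rose and 3 fell of 24 tested. Over all genes 48.6% were called in either direction, so mitochondrial genes were not called more often than all genes. MT-RNR1, MT-RNR2 and MT-ND1, which follow each other at the start of the heavy-strand transcript, fell by 0.15 ± 0.05, 0.26 ± 0.06 and 0.24 ± 0.05 on the log2 scale. MT-CO1, MT-ATP6, MT-ND3 and MT-CYB rose by 0.20 ± 0.05, 0.26 ± 0.07, 0.17 ± 0.06 and 0.14 ± 0.05. The tRNAs for glutamine and proline, MT-TQ and MT-TP, rose by 0.49 ± 0.19 and 0.73 ± 0.26 on 26 to 72 reads in each of the 18 libraries. In counts without strand, which for MT-TP are mostly antisense reads, MT-TP was at -0.011. The remaining 15 did not pass. Among them were MT-ND2, MT-CO2, MT-CO3, MT-ND4L, MT-ND4 and MT-ND5, which lie along the same transcript as the 4 mRNAs that rose. With DMSO 4 h replicate 3 left out, 4 were called, and with DMSO 4 h replicate 2 or DMSO 12 h replicate 3 left out, 5.

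The drug effect at 12 h was lower than at 4 h for 9 mitochondrial mRNAs when all libraries were used (16.7% of all genes differed in this contrast). The 9 differences ran from -0.72 for MT-ATP8 to -0.23 for MT-ND1 on the log2 scale. When replicate 3 stood alone for copanlisib at 4 h, 0 of 26 mitochondrial genes differed by edgeR, where 5.29% of all genes did. Between 12 h and 8 h, 0 of 24 differed, where 0.0558% of all genes did.

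Reads opposite to the annotated strand were 3.00% to 4.16% of mitochondrial reads, and most of them lay on MT-ND6. Antisense MT-ND6 had 30440 to 65451 reads per library, against 585 to 1721 sense reads, so 97.4% to 98.7% of its reads were antisense. These are reads of the strand that carries MT-ND5 and MT-CYB. The same strand also took nearly all reads over 3 tRNAs of the light-strand transcript: 99.1% to 100% over MT-TY, 97.0% to 100% over MT-TC and 93.7% to 98.0% over MT-TP. For other tRNAs of that transcript the share was lower, with 86.8% to 97.8% over MT-TS1, 71.7% to 92.6% over MT-TE, 53.9% to 85.7% over MT-TA and 47.3% to 71.7% over MT-TQ. The antisense share differed by 0.175 points between copanlisib and DMSO on average over the times, which did not pass (exact permutation, p = 0.062, adjusted over 5 quantities p = 0.0775). Without copanlisib 4 h replicate 1 the difference was 0.0582 points, and without copanlisib 4 h replicate 2 it was 0.236 points and passed (adjusted p = 0.0379), as it did without copanlisib 12 h replicate 3 (0.190 points, adjusted p = 0.0456).

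Antisense reads of MT-TY, which lie between MT-ND2 and MT-CO1 on the strand of those mRNAs, were higher with copanlisib. At 4 h they were 43.2, 46.3 and 33.7 CPM with copanlisib, against 34.6, 31.3 and 30.5 CPM with DMSO. At 8 h they were 31.8, 27.3 and 33.2 CPM with copanlisib, against 23.2, 22.7 and 27.2 CPM with DMSO, and at 12 h 33.2, 28.9 and 31.9 CPM with copanlisib, against 25.0, 23.9 and 25.4 CPM with DMSO. The groups did not overlap at 8 h and 12 h. The log2 fold change was 0.36 ± 0.10, 0.34 ± 0.10 and 0.34 ± 0.11 at 4, 8 and 12 h (edgeR over 6170 antisense features, adjusted p = 0.0214, 0.0691 and 0.079), and 0.07 ± 0.10 at 4 h with replicate 3 alone. Averaged over the times, 4 of 24 mitochondrial antisense features were called, all higher. Over all antisense features 20.7% were called in either direction, so mitochondrial ones were not called more often. With TMM factors from the antisense counts themselves 1 was called, and the share of all features there is not given here. The average for antisense MT-TY was 0.35 ± 0.06 with all libraries (adjusted p = 0.000377) and 0.25 ± 0.05 with replicate 3 alone (adjusted p = 5.26e-05). With replicate 3 alone, 3 of 25 mitochondrial antisense features were higher on average and 1 was lower, where 9.01% of all antisense features were higher and 8.00% lower, so the count is near the background. The averages of antisense MT-TC and MT-ND6 were 0.23 ± 0.07 and 0.09 ± 0.03 (adjusted p = 0.00801 and 0.0128), and antisense MT-ND3 was lower, at -0.13 ± 0.04 (adjusted p = 0.0253).

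Antisense MT-TC, its neighbour, was called at 12 h. It was the only mitochondrial antisense feature called then of 24 tested, a count near the background of 4.33% of all antisense features. Its values were 19.4, 17.3 and 16.9 CPM with copanlisib, against 10.6, 12.8 and 14.7 CPM with DMSO. The groups did not overlap, and the log2 fold change was 0.49 ± 0.11 (edgeR, adjusted p = 0.0112). Without copanlisib 12 h replicate 1 or DMSO 12 h replicate 1 it was 0.428 or 0.375 and not called. At 8 h the values were 14.9, 11.8 and 13.3 CPM with copanlisib, against 10.4, 10.9 and 11.6 CPM with DMSO, again without overlap, with a log2 fold change of 0.28 ± 0.11 that did not pass (adjusted p = 0.173). At 4 h antisense MT-TC was at -0.12 ± 0.11, not called.

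Antisense MT-ND6 had 3174, 3228 and 2451 CPM with copanlisib, against 2432, 2264 and 2156 CPM with DMSO at 4 h. The groups did not overlap, and the log2 fold change was 0.37 ± 0.07 (edgeR, adjusted p = 0.00271). With replicate 3 alone it was 0.10 ± 0.05 (adjusted p = 0.4). At 8 h and 12 h it was 0.09 ± 0.07 and 0.07 ± 0.07, neither called. The MT-ND6 sense share of mitochondrial mRNA reads was 0.0590% ± 0.00417 with copanlisib and 0.0608% ± 0.0121 with DMSO at 12 h (SD, n = 3 each), and its average difference over the times was -3.79e-05 points (exact permutation, p = 0.9938).

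**Figure D4:**
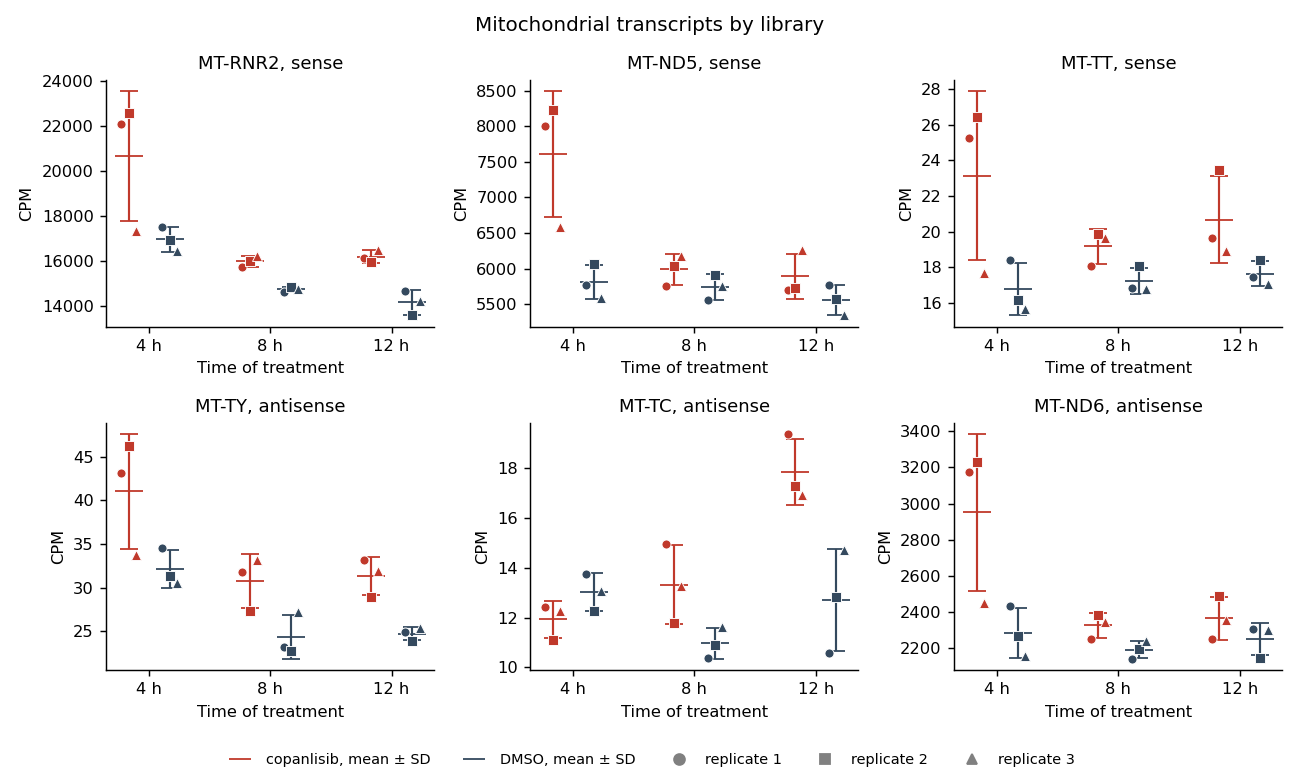
CPM by library and time for sense MT-RNR2, MT-ND5 and MT-TT and antisense MT-TY, MT-TC and MT-ND6, 1 point per library with mean ± SD (n = 3); vertical axes do not start at 0. At 4 h copanlisib replicates 1 and 2 stand above replicate 3 in every panel but antisense MT-TC, and at 8 h and 12 h copanlisib lies above DMSO without overlap for MT-RNR2, MT-TT, antisense MT-TY and antisense MT-TC.

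At 4 h, 10 of 24 mitochondrial antisense features were higher with copanlisib and 0 lower, where 19.6% of all antisense features were called. Copanlisib replicate 1 stood far above the other libraries in most of them. Antisense MT-RNR2 had 6867, 246 and 131 reads in the copanlisib libraries, against 154, 119 and 165 reads in the DMSO libraries. Antisense MT-CO1 had 5064, 599 and 293 reads with copanlisib, against 225, 282 and 263 reads with DMSO. In replicate 1, CPM on plain totals were 44.7 times the median of the other 17 libraries for antisense MT-RNR2, 38.6 times for antisense MT-RNR1 and 15.5 times for antisense MT-CO1. Nuclear genes of that library showed it too: the median antisense share over the 500 most-read nuclear genes was 1.29%, against 0.0713% to 0.257% in the other 17 libraries. Its part in the mitochondrial antisense result was not tested.

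When replicate 3 stood alone, 0 of 25 mitochondrial antisense features were called at 4 h by edgeR, where 3.14% of all were. All 13 antisense mRNA features had a log2 fold change above 0 with all libraries, and 8 of the 13 were below 0 with replicate 3 alone, where the lowest was -0.67 ± 0.26 for MT-ATP8. Without replicate 1 alone, 6 were called, 5 higher and 1 lower, and without DMSO 4 h replicate 2 or 3, 3 and 4 were. The shares of all antisense features called in these refits are not given here, so the counts cannot be set against them. At 8 h, 0 of 24 were called, where 4.86% of all were. Leaving out copanlisib 8 h replicate 2 gave 1.

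Away from MT-ND6, the antisense level per length was uneven along the heavy-strand genes and, among their mRNAs and rRNAs, lowest at the rRNAs. In DMSO, antisense MT-ND5 had 173 ± 19.5 CPM per kb, MT-ND3 150 ± 16.1 and MT-CO3 101 ± 12.1. MT-CYB, the mRNA gene nearest to the light-strand promoter, had 71.8 ± 8.39 CPM per kb. MT-CO2 had 32.1 ± 4.21 and MT-CO1 9.13 ± 1.76 CPM per kb. At the far end of that transcript MT-RNR2 had 4.64 ± 1.93 and MT-RNR1 0.825 ± 0.389 CPM per kb (SD, n = 9 libraries). The median antisense share of reads was 0.048% for MT-RNR2, 0.097% for MT-RNR1 and 0.092% for MT-CO1 over the 18 libraries. For nuclear genes the median was 0.0713% to 0.257% outside copanlisib 4 h replicate 1. The low end is thus near or below the level at nuclear genes, and its part of light-strand RNA was not tested. Reads assigned to the light-strand transcript were antisense reads of heavy-strand genes plus sense reads of light-strand genes. At 4 h they were 0.997% ± 0.604 of mitochondrial reads with copanlisib and 0.765% ± 0.0211 with DMSO. At 8 h they were 0.776% ± 0.0485 with copanlisib and 0.759% ± 0.0488 with DMSO. At 12 h they were 0.827% ± 0.0451 with copanlisib and 0.841% ± 0.0955 with DMSO (SD, n = 3 each). The copanlisib libraries at 4 h held 1.69, 0.591 and 0.710%, so replicate 1 set the high mean and SD there. That library also had the highest median antisense share over nuclear genes, 1.29%. In it, reads set on the wrong strand may count as light-strand RNA, which was not tested. The light-strand share was added after the data were seen. Its average difference was 0.0785 points with all libraries (exact permutation, p = 0.8347) and -0.0173 points without copanlisib 4 h replicates 1 and 2 (p = 0.5231).

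**Figure D5:**
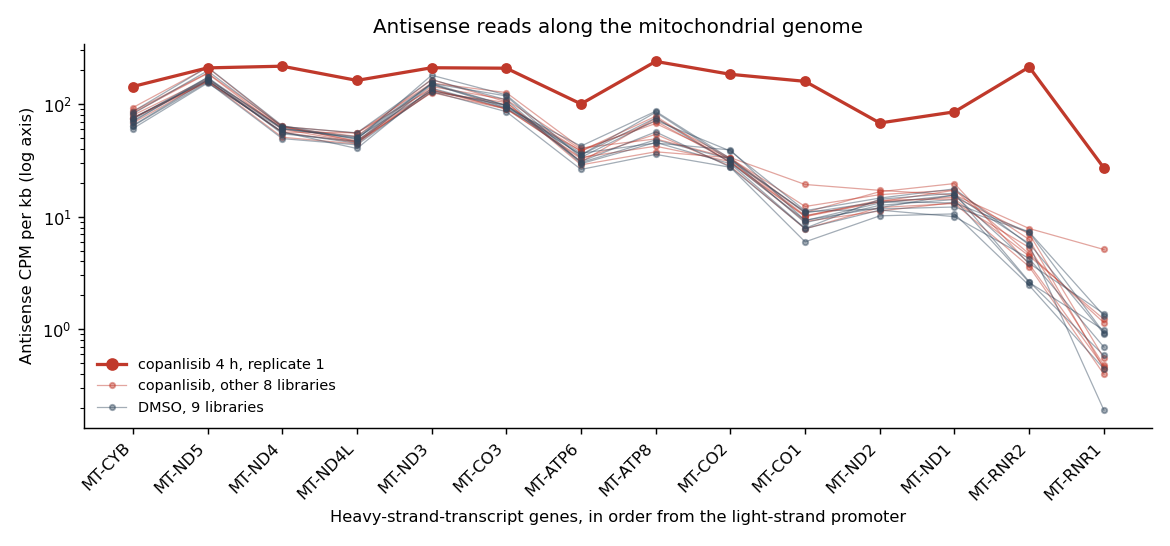
Antisense CPM per kilobase (log axis) of the 14 mRNAs and rRNAs of the heavy-strand transcript, in order from the light-strand promoter, 1 line per library. Copanlisib 4 h replicate 1 (thick line) stands 44.7 times above the median of the other 17 libraries at MT-RNR2 and 38.6 times at MT-RNR1.

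Among nuclear genes that serve the mitochondrial genome, more were called lower than higher at each time in both lists. Over all genes, 20.7% were lower and 17.7% higher at 4 h, 18.3% lower and 14.8% higher at 8 h, and 16.5% lower and 13.8% higher at 12 h. Of 34 tested genes of mitochondrial transcription and DNA maintenance, 15 were lower and 7 higher at 4 h, 14 lower and 3 higher at 8 h, and 13 lower and 2 higher at 12 h. Replicate 3 alone gave 12 lower and 4 higher at 4 h, where 13.4% of all genes were lower and 8.86% higher. Their median log2 fold change was -0.077, -0.11 and -0.10, against 0.0095, 0.015 and 0.0044 over all genes. The 4 with the smallest p at 8 h or 12 h were PPRC1, a coactivator of nuclear respiratory genes, ATAD3A, an inner membrane ATPase bound to nucleoids, SLC25A33, a pyrimidine nucleotide carrier, and TWNK, the mitochondrial DNA helicase. PPRC1 was at -0.86 ± 0.06, -0.63 ± 0.06 and -0.48 ± 0.06 at 4, 8 and 12 h, and at -0.74 ± 0.07 at 4 h with replicate 3 alone. ATAD3A was at -0.60 ± 0.07 and -0.46 ± 0.07 at 8 and 12 h, SLC25A33 at -0.66 ± 0.09 and -0.60 ± 0.09, and TWNK at -0.45 ± 0.06 and -0.45 ± 0.06. All of these passed the test, with edgeR adjusted p of at most 1.15e-05.

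POLRMT, the mitochondrial RNA polymerase, and TFAM, its main activator and DNA packaging protein, were picked out after their values were seen. POLRMT fell at 4 h (-0.45 ± 0.10, edgeR adjusted p = 0.000501) with all libraries but was at -0.07 ± 0.07 with replicate 3 alone (adjusted p = 0.47), and was at -0.06 ± 0.09 and 0.01 ± 0.10 at 8 and 12 h, not called. TFAM was at -0.06 ± 0.06 at 4 h with all libraries, not called, and at -0.24 ± 0.06 with replicate 3 alone, called (adjusted p = 0.00253), and fell at 8 h (-0.39 ± 0.06) and 12 h (-0.18 ± 0.06, adjusted p = 0.0228).

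Of 43 tested genes of mitochondrial RNA processing and decay, 25 were lower and 1 higher at 4 h, 24 lower and 0 higher at 8 h, and 18 lower and 1 higher at 12 h. Replicate 3 alone gave 20 lower and 0 higher at 4 h. Their median log2 fold changes were -0.20, -0.21 and -0.15. PNPT1, the exonuclease of the mitochondrial degradosome, was at -0.52 ± 0.06, -0.70 ± 0.06 and -0.52 ± 0.06 at 4, 8 and 12 h. NSUN2, a methyltransferase of nuclear and mitochondrial tRNAs, was at -0.43 ± 0.05, -0.59 ± 0.05 and -0.40 ± 0.05. PDE12, which removes poly(A) tails in mitochondria, was at -0.48 ± 0.06, -0.44 ± 0.06 and -0.32 ± 0.06, and each of these values passed the test. LRPPRC, which stabilises mitochondrial mRNAs, was at 0.02 ± 0.05 at 4 h and at -0.12 ± 0.05 with replicate 3 alone, not called in either fit, and fell at 8 h (-0.37 ± 0.05) and 12 h (-0.26 ± 0.05, edgeR adjusted p = 0.000139).

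Copies of mitochondrial genes lie in nuclear DNA and share long stretches with the originals, so reads can be split between both and their values are uncertain. Of 23 such copies, 9 were tested. At 4 h, 3 were higher and 0 lower: MTCO2P12 (0.51 ± 0.08), MTND2P28 (0.34 ± 0.07) and MTATP6P1 (0.16 ± 0.05), copies of MT-CO2, MT-ND2 and MT-ATP6. Over all genes, 38.4% were called at 4 h in either direction and 17.7% higher. With only 9 copies tested, the count was not compared with these shares by a test. With replicate 3 alone, MTCO2P12 was at 0.18 ± 0.05 (edgeR adjusted p = 0.00867), while MTND2P28 and MTATP6P1 were at 0.02 ± 0.05 and 0.06 ± 0.05, not called. At 8 h and 12 h, 0 were called by edgeR. The summed level of the copies was 1678 to 2270 CPM per library, and their part in the mitochondrial results was not tested.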

How the data were processed

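RNA-seq libraries were made from HAIR-M cells given copanlisib or DMSO, 18 in all. The authors deposited whole-number counts of reads per gene for each library, without strand and for each strand; the submitters' processing notes name CASAVA 1.7, STAR 2.5.2b and hg38. Their annotation version is not stated; all 37 identifiers matched GENCODE 29, whose coordinates and sequences are used. The kit named in the labels' protocol does not mark strand, but 94.3% to 95.3% of stranded gene reads lay in 1 column, taken as sense. Counts were tested with edgeR 4.0.16 in R 4.3.3 (quasi-likelihood, 6 group means, TMM, filterByExpr), with p adjusted by Benjamini-Hochberg over 16122 genes. Antisense counts were tested over 6170 features with the sense library sizes and factors. Each fit estimated the spread over all groups, so the copanlisib 4 h libraries also weigh on the 8 h and 12 h tests. Alternatives used DESeq2 1.42.0 and limma 3.58.1. Shares were compared by exact permutation within time. The edgeR fit and the permutation were each tested on simulated data. Levels are CPM on TMM-scaled totals unless said otherwise. Depth was 13587017 to 25566761 sense reads, and tests cover counting error and the spread between libraries. Members and lists were chosen with earlier results of these data known. From each list, up to 4 genes with the smallest p at 8 h or 12 h are named. The average over times was added beside the planned comparisons. Same-numbered libraries had deviations correlated from -0.0901 to 0.101, so numbers do not pair them.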

Additional observations from a re-analysis of the deposited data

Results flagged for a closer look

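The drug effect on 9 mitochondrial mRNAs differed between 12 h and 4 h by the test of the difference itself (edgeR, all libraries, adjusted over all genes). On the log2 scale the effect at 12 h minus that at 4 h was -0.23 for MT-ND1, -0.34 for MT-ND2, -0.23 for MT-CO1, -0.72 for MT-ATP8, -0.35 for MT-ATP6, -0.29 for MT-ND4L, -0.32 for MT-ND4, -0.31 for MT-ND5 and -0.29 for MT-CYB. When replicate 3 stood alone for copanlisib at 4 h, 0 of these differences passed, and the values in the same order were -0.07, -0.03, -0.03, -0.38, -0.04, -0.11, -0.08, -0.10 and -0.10. The unmapped reads of copanlisib 4 h replicates 1 and 2 were 8.73% and 5.22%, and their part in these differences was not tested.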

How the results depend on the processing

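The number of mitochondrial genes called for the drug at 4 h was 15, 1 when replicate 3 stood alone, and 13 to 16 with 1 library left out. At 8 h the count of 1 became 2 with plain library sizes, with no filter on low counts and with only the 6 libraries of that time, and 0 with DESeq2, which gave MT-TM no adjusted p; it was 1 with any 1 library left out. At 12 h the count of 1 became 2 with no filter, 3 in counts without strand, 3 with only the 6 libraries of that time, 0 at an adjusted p under 0.01, and 0 to 2 with 1 library left out. The count of different effects at 12 h and 4 h (9) became 14 with no filter, 0 at an adjusted p under 0.01, 0 with replicate 3 alone at 4 h, and 3 to 17 with 1 library left out: 3 without copanlisib 4 h replicate 2 and 17 without its replicate 3. That of 12 h and 8 h was 0 with any 1 library left out. In DMSO, 12 h against 4 h, 9 calls became 4 at an adjusted p under 0.01 and 4 to 7 with 1 library left out. Antisense calls at 4 h (10) became 16 with no filter, 4 at an adjusted p under 0.01, 0 with replicate 3 alone and 3 to 16 with 1 library left out. Antisense calls at 8 h (0) became 1 with no filter and 0 to 1 with 1 library left out, and at 12 h (1) 3 with no filter, 0 at an adjusted p under 0.01 and 0 to 1 with 1 library left out. For refits with 1 library left out, the shares of all genes or features called are not given here.

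With 1 library left out, the difference in percentage points was 0.912 to 1.32 for the mitochondrial share, 0.780 to 0.893 for the rRNA share, 0.0582 to 0.236 for the antisense share, -0.00385 to 0.00311 for the MT-ND6 share and 0.00140 to 0.00239 for the tRNA share. The antisense share passed in 2 of these 18 settings and the tRNA share in 3, while neither passed with all libraries. With replicate 3 alone at 4 h, the sense change of MT-CO1 turned to -0.0011 and, among antisense changes called with all libraries, those of MT-RNR2, MT-ND1 and MT-CO2 to -0.30, -0.054 and -0.15; 8 of the 13 antisense mRNA features were below 0 in that fit. Without copanlisib 4 h replicate 1, antisense MT-CO2 turned to -0.086 and antisense MT-ATP8 to -0.76, the lowest of ranges that reached 1.67 without copanlisib 4 h replicate 3 and 1.05 without its replicate 2. In counts without strand, MT-TP in DMSO turned to -0.011. The causes were not tested. The replicate number as a block gave the same counts of calls, 15, 1 and 1 at 4, 8 and 12 h, and 10, 0 and 1 for antisense reads. Of the 22 tRNAs, 13 had too few sense reads to test, and why was not tested.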
